A study of Mus musculus with 3 samples.

Results

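Spi1, Cebpb, Maf, Zeb2, Nr1h3, Gata6, Irf4, Irf8 and Batf3 are 9 transcription factor genes known for giving macrophages, dendritic cells and neutrophils their identity. They were taken by gene symbol from the 32285 genes counted in leukocytes of the mouse aorta, and all 9 were detected in at least 1 kept cell. The cells came from 10 mice on the C57BL/6 background, whose aortic leukocytes were labelled with 1 hashtag antibody per mouse, pooled, sorted for CD45 and run together as 1 CITE-seq experiment, which counts messenger RNA and surface antibodies in the same cell. Mice 1 to 5 were Jak2WT controls. Mice 6, 8 and 10 were Jak2V617F Myel mice with an aortic dilation, and mice 7 and 9 were Jak2V617F Myel mice with an aneurysm. In Jak2V617F Myel mice, which are called mutant here where both severities are pooled, the activating V617F allele of the kinase Jak2 is switched on by LysM-Cre. This Cre is driven by the lysozyme promoter, which is active in most macrophages, monocytes and neutrophils and in only some dendritic cells, and counts at the 3′ end of transcripts do not show which single cells carried the mutated base. All mice were untreated. Each genotype was stained for CD45 in its own colour, and the sort was set to take about equal numbers of cells from both genotypes, after blood leukocytes had been marked by an injected antibody and excluded. The age and sex of each mouse are not given in the sources used here.

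Jak2 passes signals of erythropoietin, thrombopoietin, GM-CSF and interferon gamma receptors to STAT factors, which bind GAS elements in DNA. Identity factors work in combination. PU.1, the product of Spi1, opens myeloid enhancers in every myeloid lineage, C/EBPbeta (Cebpb) is used by monocytes, neutrophils and activated macrophages, and c-MAF (Maf) and ZEB2 (Zeb2) maintain tissue-resident macrophages. GATA6 (Gata6) defines macrophages of the peritoneal and pleural cavities, and LXRalpha (Nr1h3) is an oxysterol receptor of lipid-handling macrophages such as Kupffer cells. IRF8 with BATF3 sets up conventional type 1 dendritic cells (cDC1), IRF4 favours conventional type 2 dendritic cells (cDC2), and ZEB2 opposes the cDC1 fate.

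The start-site regions of the 3 dendritic cell factors are shown because IRF8, BATF3 and IRF4 set up the dendritic cell types compared here, and they were searched for the letters through which STAT factors, which Jak2 activates, and PU.1 are known to bind DNA. RefSeq promoter sequences on GRCm38.p6, 250 bases before to 50 bases after the start, were found for 6 of the 9 genes, in 11 entries. Spi1 and Maf had no entry. Gata6 was left out of the search, and its position is not reported here. Capitals mark a GAS match (TTCNNNGAA) or a PU.1 core match (GAGGAA, searched on both strands), and no 2 matches overlap. Sequences run 5′ to 3′, and all 3 genes lie on the plus strand.
Irf8, chr8:120736108-120736407: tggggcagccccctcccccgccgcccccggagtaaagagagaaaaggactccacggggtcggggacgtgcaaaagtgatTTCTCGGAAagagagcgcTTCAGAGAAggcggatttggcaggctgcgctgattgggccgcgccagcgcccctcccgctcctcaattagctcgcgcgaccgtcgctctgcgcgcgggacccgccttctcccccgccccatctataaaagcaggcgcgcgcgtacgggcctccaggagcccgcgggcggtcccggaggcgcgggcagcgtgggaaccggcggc
Batf3, chr1:191098164-191098463: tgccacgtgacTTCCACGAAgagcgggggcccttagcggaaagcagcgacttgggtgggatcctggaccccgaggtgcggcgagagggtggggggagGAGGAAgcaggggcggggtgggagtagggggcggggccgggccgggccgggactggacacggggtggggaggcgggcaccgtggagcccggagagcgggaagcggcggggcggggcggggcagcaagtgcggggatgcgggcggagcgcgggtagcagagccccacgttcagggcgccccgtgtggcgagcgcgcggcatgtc
Irf4, chr13:30748983-30749282: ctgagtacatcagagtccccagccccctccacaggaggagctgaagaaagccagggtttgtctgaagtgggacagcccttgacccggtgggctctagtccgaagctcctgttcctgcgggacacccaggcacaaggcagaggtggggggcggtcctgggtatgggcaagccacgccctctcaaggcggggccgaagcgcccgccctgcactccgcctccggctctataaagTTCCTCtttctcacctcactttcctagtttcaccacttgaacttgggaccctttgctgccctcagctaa

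Of the regions shown, Irf8 held 2 GAS matches and Batf3 held 1 GAS and 1 PU.1 core match. Irf4 held 1 PU.1 core match and no GAS match. Among the entries not shown, all 4 of Zeb2 held a PU.1 core match and 2 of them a GAS match. The 2 with a GAS match (45113204-45113503 and 45113230-45113529) overlap, and their GAS and PU.1 core matches are the same letters counted again. A second Irf8 entry (chr8:120738389-120738688) and the Cebpb entry held 0 matches of either kind. The Nr1h3 entry starting at 91194986 held 1 PU.1 core match and 0 GAS matches, and the entry starting at 91195067 held 0 of either. Among all 32851 promoter entries of the same length, 8.30% held a GAS match and 28.3% a PU.1 core match; a match describes letters and not a bound site. By the GENCODE vM21 annotation of GRCm38, the genes are protein coding and lie at chr8:120736358-120756694 (Irf8), chr1:191097847-191108945 (Batf3) and chr13:30749226-30766976 (Irf4), all on the plus strand. On chromosome 2 lie Spi1 (91082390-91115756, plus strand), Nr1h3 (91184061-91202834, minus strand), Cebpb (167688915-167690418, plus strand) and Zeb2 (44983632-45117395, minus strand), and Maf lies at chr8:115682942-115707794 on the minus strand.

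Of 8471 barcodes, 5857 carried 1 hashtag, and 4871 were kept after removal of cells with over 10% mitochondrial UMIs. A mouse gave between 112 and 811 kept cells. The cells were clustered without the 9 genes, so that the classes do not rest on them, and named from marker lists. The myeloid classes were 3 subsets of Lyve1+ resident macrophages (Res-MGL1hi, 417 cells, Res-Txniphi, 240 cells, and IEG+, 463 cells led by immediate early genes), inflammatory macrophages (486 cells), macrophages with an interferon signature (IFNIC, 57 cells), monocytes (28 cells), cavity-type myeloid cells (206 cells), cDC1 (83 cells), cDC2 (396 cells) and neutrophils (110 cells). Counting IEG+ cells among the Lyve1+ resident macrophages was a choice made here. The study lists its IEG+ macrophages apart from its LYVE-1+ resident subsets, and Lyve1 levels per subset are not given here. Surface antibodies played no part in the clustering. XCR1 was highest in cDC1, Ly6G in neutrophils, IAIE and MGL2 in cDC2, Ly6C in monocytes, CD163 in Res-MGL1hi and TIM4 in cavity-type cells, each among 19 classes. MGL1 protein was highest in mast cells, and it was alike in Res-MGL1hi (5.13 mean counts per cell) and Res-Txniphi (5.08), so the Res-MGL1hi name rests on transcripts and its own surface marker does not set the class apart. The class is also a mixture: the list of a further resident subset, Res-S100hi, scored second in it (1.36, against 1.94), and at a clustering resolution of 1.2 most of its cells fell into a Res-MGL1hi and a Res-S100hi cluster of 160 and 191 cells. The Res-MGL1hi name is used here for both.

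Levels are given as CPM, UMIs of the gene scaled to a total of 1e6 UMIs over all genes, summed over the cells of 1 class in 1 mouse, for mice with at least 10 such cells. They are counts of 3′ ends and are compared between classes within a gene, not between genes. The classes are clusters of the same cells, so these differences are described and not tested. Free RNA in droplets gives UMIs to cells that do not make a gene, so levels in T cells (408 cells), or in B cells (561 cells) for Maf, are given beside those of the myeloid classes. For Cebpb the T cell level was above that of cDC1 and is no background. The B cell level of Maf and the T cell level of Zeb2 were also above those of cDC1 and are no floor for it. Poisson intervals and zero-count limits cover counting error only.

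Spi1 was the most even of the members across myeloid classes. Its mean level was 531 ± 106 CPM (SD, n = 3 mice) in neutrophils, 407 ± 100 (n = 5) in inflammatory macrophages, 349 ± 60.1 (n = 10) in Res-Txniphi, 304 ± 34.2 (n = 8) in Res-MGL1hi, 288 ± 44.4 (n = 9) in cDC2, 260 ± 45.1 (n = 9) in IEG+, 235 ± 75.2 (n = 4) in cDC1 and 198 ± 26.7 (n = 3) in cavity-type cells. Neighbours in this order overlapped, while neutrophils and cavity-type cells at its ends did not (447 CPM and more, against at most 229). The T cell background was 7.29 CPM, so all of these classes lay far above it.

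Cebpb, a factor of inflammatory and granulocyte programmes, differed widely between classes. It reached 4749 ± 744 CPM in neutrophils, with 5395 CPM in mouse 3, 3935 in mouse 7 and 4917 in mouse 9. Cavity-type cells followed with 3111 ± 417 CPM (3571, 2758 and 3003 in mice 5, 8 and 10), and the 28 monocytes pooled gave 2796 CPM (95% Poisson interval 2625 to 2977). The order then ran through IEG+ (2130 ± 453), inflammatory macrophages (1531 ± 360), Res-MGL1hi (1152 ± 328), cDC2 (653 ± 196) and Res-Txniphi (532 ± 169). cDC1 lay at 17.0 ± 5.19 CPM and T cells at 193 CPM pooled. Within the Lyve1+ macrophages, the IEG+ values (1259.95 to 2775 CPM) lay above all Res-Txniphi values (232 to 781 CPM).

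Maf was highest in resident macrophages. Its level was 1997 ± 377 CPM in Res-Txniphi, 1592 ± 228 in Res-MGL1hi and 1521 ± 163 in IEG+, 3 neighbours that overlapped. Inflammatory macrophages held 468 ± 112 CPM and did not overlap with any of these subsets (highest 601, lowest of the subsets 1233). Cavity-type cells had 144 ± 57.3 CPM, cDC2 100 ± 66.9, neutrophils 67.7 ± 82.7 and cDC1 6.41 ± 3.61. B cells, given beside Maf for free RNA, lay at 35.9 CPM, above cDC1. Outside the myeloid cells, gamma delta T cells held 769 CPM pooled. These T cells are known to use c-MAF for interleukin-17 production.

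Zeb2, a zinc finger repressor, was high in all myeloid classes but 1. It ranged from 357 ± 24.0 CPM in neutrophils through 630 ± 95.5 in inflammatory macrophages, 693 ± 88.2 in IEG+, 723 ± 76.7 in cDC2, 770.0 ± 26.6 in cavity-type cells and 841 ± 137 in Res-Txniphi to 916 ± 180 in Res-MGL1hi, and apart from neutrophils these classes overlapped. The 28 monocytes pooled gave 986 CPM (95% Poisson interval 885 to 1095). In cDC1 the level was near that of T cells (18.8 CPM): 8.24 CPM in mouse 2, 12.4 in mouse 6, 4.89 in mouse 7 and 25.9 in mouse 9. Mast cells, which were not among the myeloid classes compared, held 887 CPM pooled.

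Among the myeloid classes, Irf8 was highest in cDC1 and Irf4 in cDC2, and Batf3 was alike in both. This rests on the main clustering, since with 10 principal components the dendritic cell types shared a cluster. Irf8 was 976 CPM in mouse 2, 791 in mouse 6, 823 in mouse 7 and 1044 in mouse 9 in cDC1, and every cDC1 cell had at least 1 Irf8 UMI. All other myeloid values were lower: Res-Txniphi had 136 ± 56.8 CPM, inflammatory macrophages 120 ± 39.0, IEG+ 119 ± 27.4, Res-MGL1hi 84.2 ± 22.4, cDC2 46.0 ± 40.7, cavity-type cells 29.9 ± 1.59 and neutrophils 9.73 ± 16.9. These neighbours overlapped. The 57 IFNIC cells pooled gave 206 CPM (174 to 244), but the 2 mice with at least 10 such cells had 26.8 and 202 CPM. With each cell thinned to 2000 UMIs, 77.4% of cDC1, 18.9% of Lyve1+ macrophages and 6.25% of cDC2 cells would show an Irf8 UMI, against 2.07% of T cells. NK cells, in which IRF8 is also used, held 728 CPM pooled. Their mean per mouse was 922 ± 181 CPM (n = 2), beside 909 ± 121 (n = 4) in cDC1.

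Batf3, the AP-1 family partner of IRF8, did not separate the dendritic cell types. It was 146 ± 54.3 CPM in cDC1 (181, 83.8, 117 and 199.99 in mice 2, 6, 7 and 9) and 145 ± 54.5 in cDC2, values that overlapped. The Lyve1+ subsets lay lower, at 46.9 ± 16.5 CPM in Res-Txniphi, 40.7 ± 11.02 in Res-MGL1hi and 37.7 ± 11.5 in IEG+, of which the highest Res-Txniphi mouse (87.0) reached the lowest dendritic cell mice. The IFNIC cells of 2 mice (72.3 and 125 CPM) also reached them, and cavity-type cells (7.11 ± 8.02) and neutrophils (1.39 ± 2.41) lay lower again. T cells held 0.911 CPM.

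Among the myeloid classes, Irf4 was highest in cDC2, at 92.7 ± 41.8 CPM. Res-MGL1hi had 29.3 ± 17.8 CPM, Res-Txniphi 26.3 ± 13.1, IEG+ 21.3 ± 7.29, inflammatory macrophages 17.6 ± 7.53 and cavity-type cells 11.2 ± 11.6, a run of neighbours that overlapped, with the highest Res-MGL1hi mouse (68.3) inside the cDC2 range. In cDC1 it was seen in 1 of 4 mice. B cells, which also use IRF4, held 111 CPM pooled and 123 ± 41.7 CPM per mouse (n = 9). Taken per class, Irf8 made up 99.6% of the UMIs of Irf8 and Irf4 together in cDC1 (exact 95% binomial interval 99.1 to 99.9), 37.0% in cDC2 (34.0 to 40.1) and 81.2% in Lyve1+ macrophages (79.1 to 83.1). In cDC2, 6 cells with plasmacytoid markers held 53.1% of the Irf8 UMIs, and without them the share was 21.7% (18.9 to 24.7). These binomial intervals pool the UMIs of all mice and leave out the spread between mice and between cells. The shares are read between classes, not as a ranking of the genes. Of the cDC2 cells, 49 had a UMI of Irf8 alone, 160 of Irf4 alone and 36 of both, counts that were not set against the overlap sparse detection would give.

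Gata6 was far higher in cavity-type cells than in the other myeloid classes. These held 55.3 CPM in mouse 5, 61.4 in mouse 8 and 58.6 in mouse 10, a spread of 3.07 CPM around a mean of 58.4. In the other myeloid classes no mouse passed 3.54 CPM, and Res-Txniphi cells, IFNIC cells, monocytes and neutrophils had 0 Gata6 UMIs, which allows up to 1.39, 4.42, 8.50 and 5.25 CPM by the limit of 3 counts. A Gata6 UMI was found in 55.8% of cavity-type cells, or 11.2% after thinning to 2000 UMIs, against 0.245% of T cells, or 0.0392% after thinning. The 47 non-leukocytes that passed the sort, a class named from stromal and endothelial genes, held 183 CPM pooled. The cavity-type cells came almost wholly from Jak2WT mouse 5 (76 cells) and dilation mouse 10 (99 cells), with 13 from mouse 8 and at most 5 from any other mouse.

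Nr1h3 was the weakest member. The 28 monocytes gave 31.2 CPM from 11 UMIs (95% Poisson interval 15.6 to 55.8), Res-MGL1hi 7.49 ± 7.32 CPM, inflammatory macrophages 5.67 ± 6.09 and cDC2 3.27 ± 3.52. cDC1 and neutrophils had 0 UMIs, which allows up to 1.90 and 5.25 CPM. In Lyve1+ macrophages 4.29% of cells had a UMI, against 0.980% of T cells, at median depths of 9867 and 7737.5 UMIs, and after thinning the shares were 0.877% and 0.304%. A gene at this level was too sparse to compare between groups.

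**Figure D1:**
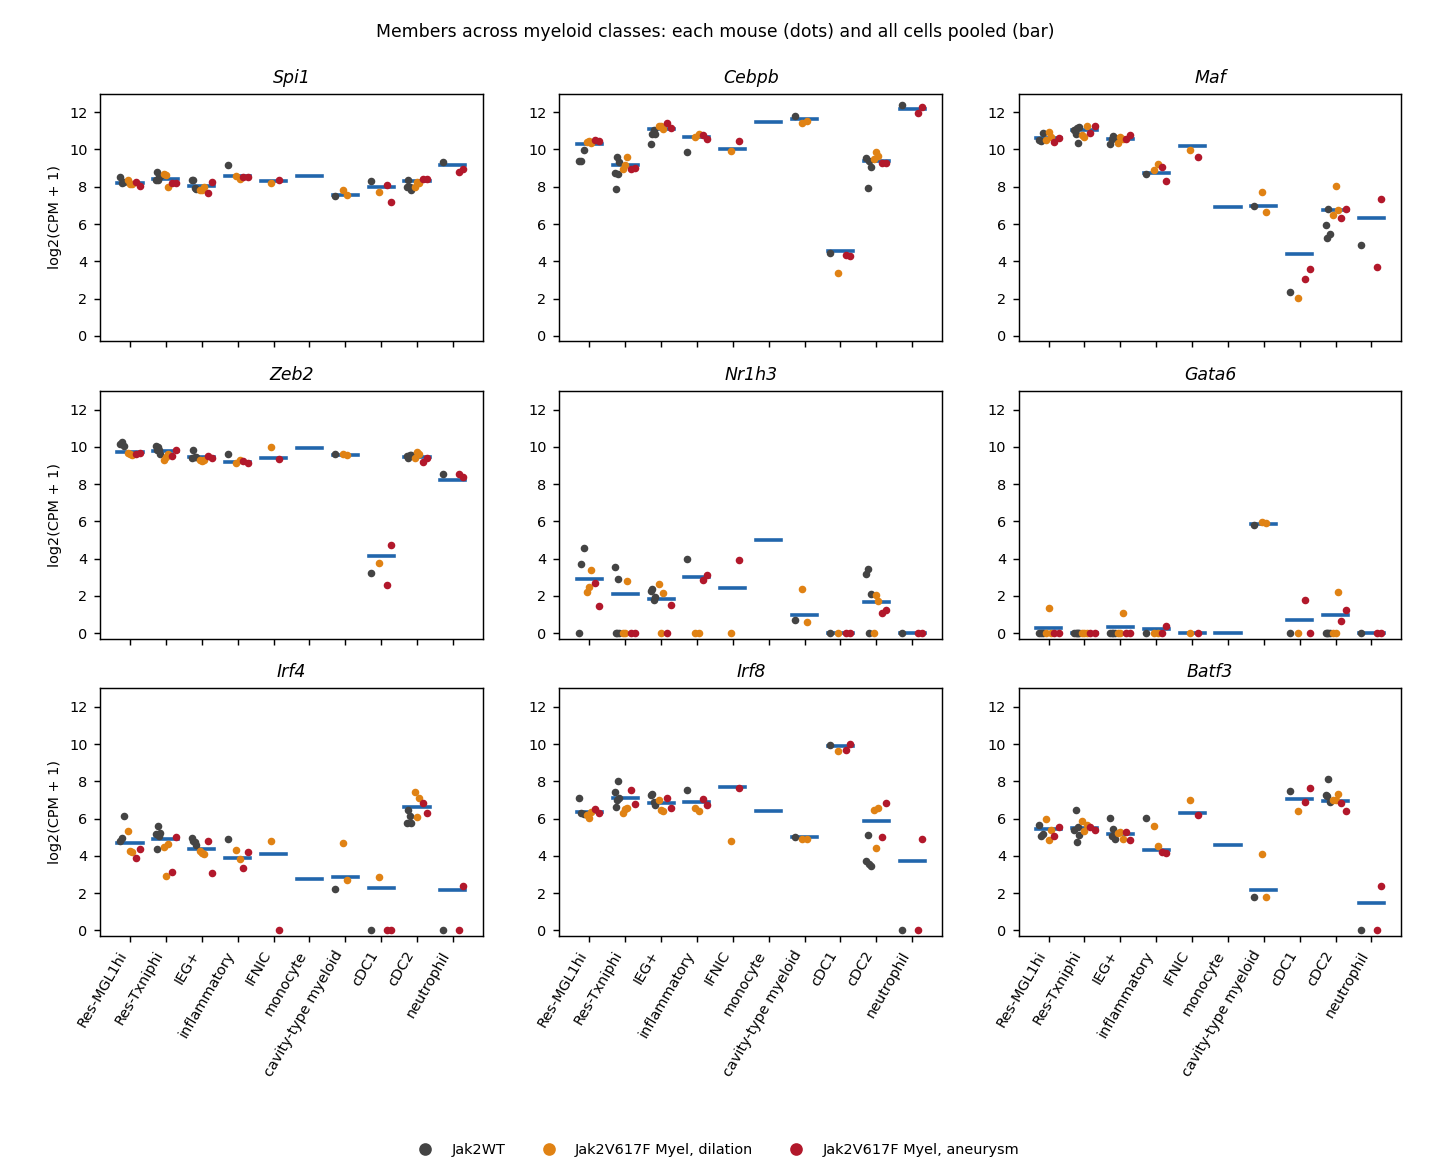
Level of each member as log2(CPM + 1) in 10 myeloid classes, with 1 dot per mouse with at least 10 cells, coloured by group, and a bar for all cells of the class pooled. Irf8 stands out in cDC1, Gata6 in cavity-type cells, and Cebpb and Zeb2 drop in cDC1. Maf is highest in the 3 resident macrophage subsets on the left, followed by IFNIC cells.

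Over the 19 classes, the genes whose pooled log2(CPM + 1) followed each member most closely were, among 10001 genes with at least 20 CPM in 1 class, Csf2ra (the GM-CSF receptor, Pearson r = 0.97), Ogfrl1 and 5031439G07Rik for Spi1, and Ccdc152 (r = 0.90), Npl and Gm15655 for Maf. For Cebpb they were Ccrl2 (r = 0.83), Ets2 and Ptgs2, and for Zeb2 Fcgr3 (r = 0.93), Atp6v1a and Idh1. Batf3 was followed by Clec4b1 (r = 0.95), Mfsd12 and Tifab, Irf8 by BC035044 (r = 0.85), Slamf7 and Phc2, and Irf4 by Ralgps2 (r = 0.75), the B cell receptor gene Cd79b and Apex1. Gata6 was followed by Ptgis (r = 0.97), Jam2 and Me1, and Nr1h3 by Zfyve9 (r = 0.87), the red pulp macrophage factor Spic and Adamtsl4. The 19 points share 1 run and differ in depth, and these values are a description.

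The first comparison asked whether the identity factors differed between genotypes in resident macrophages. UMIs of the 3 Lyve1+ subsets were summed per mouse (32 to 212 cells) and the 5 mutant mice were compared with the 5 Jak2WT mice by edgeR's quasi-likelihood test over 7603 genes. Gata6 and Nr1h3 did not pass the filter on low counts. None of the 7 members tested passed an adjusted p of 0.05, where 0.473% of all genes did (36 genes), while 4 members had an unadjusted p under 0.05, as did 955 genes, and DESeq2 called 1 member and 1.18% of genes (90). The members with the largest differences were Irf4, Irf8 and Cebpb. For Irf4, DESeq2 gave no adjusted p. With no filter on low counts, edgeR called Cebpb, Irf4 and Irf8 (adjusted p = 0.000257, 0.0246 and 0.00846), among 292 genes (1.82%).

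Irf4 was 32.0, 27.2, 36.8, 25.5 and 41.7 CPM in Jak2WT mice 1 to 5, 29.8, 16.4 and 17.8 CPM in dilation mice 6, 8 and 10, and 17.4 CPM in both aneurysm mice. Mouse 6 lay within the Jak2WT range and the other 4 mutant mice below it. The log2 fold change was -0.80 ± 0.20 (SE, adjusted p = 0.0895 by edgeR). Each of these values rests on 8 to 42 UMIs per mouse.

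Irf8 was 159, 122, 112, 201 and 108 CPM in the Jak2WT mice, 93.0, 76.1 and 84.9 CPM with dilation and 115 and 84.7 CPM with aneurysm. Only mouse 7 reached the Jak2WT range. The log2 fold change was -0.59 ± 0.16 (edgeR adjusted p = 0.107), and DESeq2 called Irf8 with a log2 fold change of -0.60 (adjusted p = 0.0456).

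Cebpb differed in the other direction. It was 746, 1209, 1588, 778 and 1159 CPM in the Jak2WT mice against 1641, 1671 and 1549 CPM with dilation and 1779 and 1557 CPM with aneurysm. Jak2WT mouse 3 alone lay within the mutant range. The log2 fold change was 0.57 ± 0.16 (edgeR adjusted p = 0.109), and without mouse 3 it was 0.74 and passed (edgeR adjusted p = 0.0277), where 0.241% of genes did. Without dilation mouse 6, Irf4 passed instead, at -0.95 (edgeR adjusted p = 0.0345), where 0.457% of genes did.

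Zeb2 was the member whose genotypes did not overlap. It was 949.7, 1012, 804, 870 and 837 CPM in the Jak2WT mice, 719, 711 and 708 CPM with dilation and 767 and 789 CPM with aneurysm, so that all mutant mice lay lower. Such a gap in this direction was seen in 0.96% of the 7603 genes (73 genes), and in the other direction in 1.45% (110 genes, no member). The log2 fold change was small, at -0.28 ± 0.09 (edgeR adjusted p = 0.17). A two-sided exact permutation test of mean log2(CPM + 1) gave p = 0.00794, the smallest it can give with 5 against 5, 0.0238 for each of Cebpb, Irf4 and Irf8 and 0.0476 for Spi1, all unadjusted.

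The other members differed least. Spi1 ranged from 275 to 335 CPM (median 322) in Jak2WT mice and from 264 to 306 CPM (median 279) in mutant mice, with a log2 fold change of -0.17 ± 0.09 (edgeR adjusted p = 0.479). Maf differed by -0.02 ± 0.12 (edgeR adjusted p = 0.979), with 1205 to 1953 CPM and 1447 to 1816 CPM. Batf3 differed by -0.19 ± 0.23 (edgeR adjusted p = 0.816), and without Jak2WT mouse 4, the highest with 92.4 CPM from 29 UMIs, by 0.02.

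**Figure D2:**
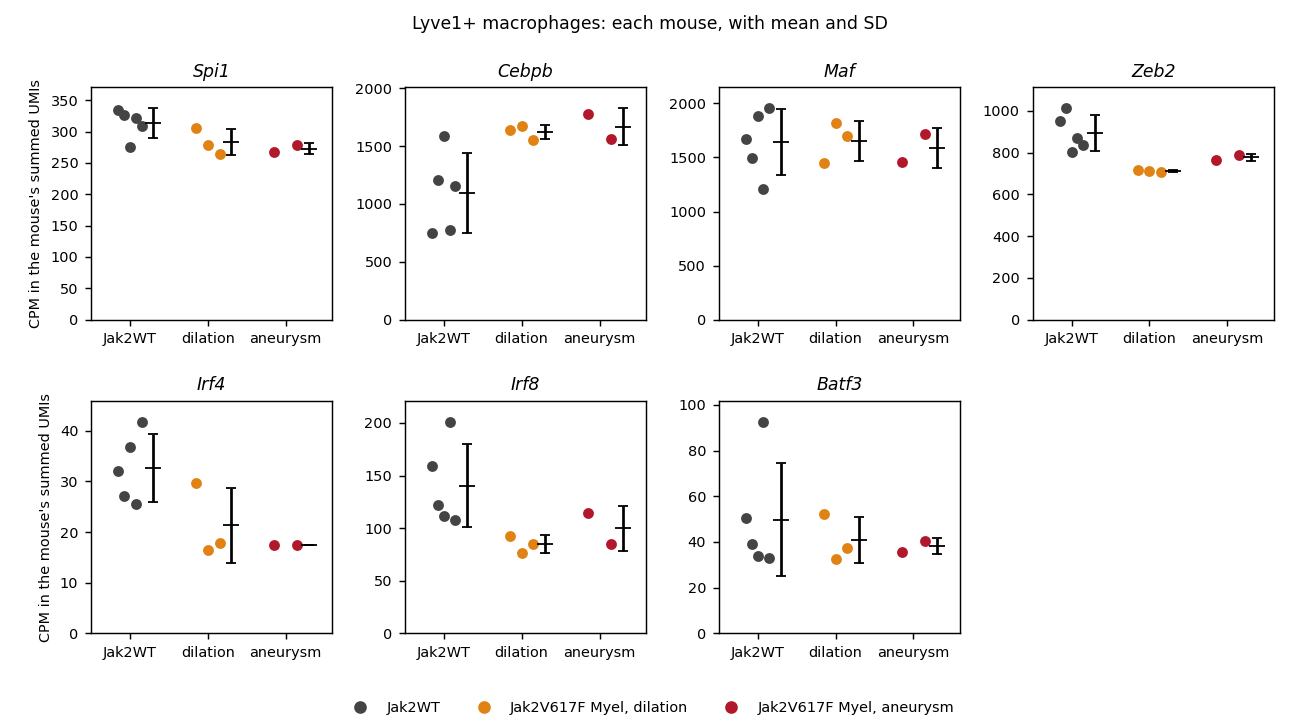
CPM of 7 members in the Lyve1+ macrophages of each mouse (dots), by group, with the mean and SD of the group (bar). Zeb2 in the 5 mutant mice (708 to 789) lies below all 5 Jak2WT mice, and Cebpb overlaps through 1 Jak2WT mouse at 1588 CPM.

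The makeup of the Lyve1+ macrophages differed between mice, and only the Res-MGL1hi share did not overlap between genotypes. The shares were not tested. Res-Txniphi cells, the subset with the lowest Cebpb, made up 12.9% to 53.1% of them in Jak2WT mice and 10.8% to 17.0% in mutant mice. Res-MGL1hi cells made up 8.79% to 30.1% and 39.6% to 56.6%. IEG+ cells, the subset with the highest Cebpb, made up 21.9% to 60.4% and 32.5% to 43.4%. Their share was highest in Jak2WT mice 3 (60.4%) and 2 (57.0%), and its part in the Cebpb call without mouse 3 was not tested. The subsets were therefore also fitted apart, an alternative chosen after the data were seen, with mice of at least 5 cells. Within Res-MGL1hi, Cebpb was 668, 671, 1120, 788 and 999 CPM in Jak2WT mice 1 to 5 and 1353, 1406, 1287, 1435 and 1399 CPM in mutant mice 6, 8, 10, 7 and 9. The genotypes did not overlap, a gap that 1.32% of the 5240 genes tested there showed in this direction, and Cebpb passed the test (log2 fold change 0.74, edgeR adjusted p = 0.0169), as did 0.324% of genes. Within IEG+ it ranged from 1259.95 to 2122 CPM (median 1789) in Jak2WT mice and from 2159.8 to 2775 CPM in mutant mice, again without overlap (0.873% of genes), but did not pass (0.43, edgeR adjusted p = 0.255), where 0.0213% of genes passed. Within Res-Txniphi the genotypes overlapped, at 232 to 781 CPM and 489.8 to 781 CPM (0.17, edgeR adjusted p = 0.935), where 1.07% of genes did not overlap with mutant mice higher and 0% were called. With the IEG+ cells left out of the sum, Cebpb differed by 0.92 and passed (edgeR adjusted p = 0.000718), where 2.5% of genes did. This sum mixes Res-MGL1hi and Res-Txniphi cells in the uneven shares given above. Its change was larger than that within either subset (0.74 and 0.17), and the part of the shares in it was not tested. Res-MGL1hi sums of Jak2WT mice 3 and 4 rest on 8 cells each.

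The Res-MGL1hi class was itself of uneven makeup. By the clusters at resolution 1.2, Res-S100hi cells were 42.9% to 75% of it in Jak2WT mice and 33.3% to 49.1% in mutant mice, with Jak2WT mouse 2 inside the mutant range. Pooled over mice, Cebpb was 1231 CPM in the 29 Jak2WT cells (95% Poisson interval 1103 to 1371) and 1301 CPM in the 114 mutant cells (1242 to 1362) that stayed Res-MGL1hi. In Res-S100hi cells it was 597 CPM (540.1 to 659, 55 cells) and 932 CPM (886 to 979, 134 cells). The cells that fell into other clusters numbered 7 and 78, with 1326 CPM (1071 to 1622) and 2197 CPM (2107 to 2289.7). These intervals pool the cells of all mice and leave out the spread between mice, so they do not compare the genotypes. The Cebpb call within Res-MGL1hi is over all of these cells, and the part of their makeup in it was not tested.

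Zeb2 within Res-MGL1hi was 1133, 1204, 798, 966 and 1038 CPM in Jak2WT mice 1 to 5 and 749 to 827 CPM in mutant mice, so that mouse 3 lay inside the mutant range (log2 fold change -0.37, edgeR adjusted p = 0.235). Within Res-Txniphi and IEG+ the genotypes overlapped as well (-0.33 and -0.21, edgeR adjusted p = 0.573 and 0.679). Irf8 had a negative log2 fold change in all 3 subsets, of -0.16 in Res-MGL1hi, -0.57 in Res-Txniphi and -0.46 in IEG+, none of them past the threshold (edgeR adjusted p = 0.89, 0.668 and 0.495). Whether the subsets differ from each other in these effects was not tested.

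**Figure D3:**
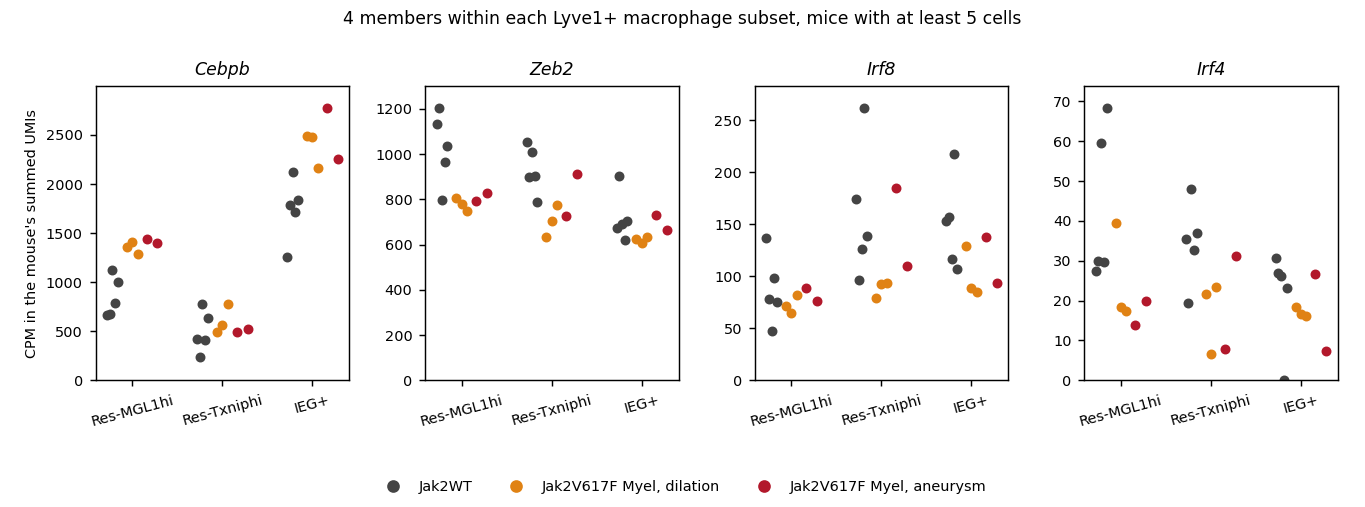
CPM of Cebpb, Zeb2, Irf8 and Irf4 within each Lyve1+ subset, 1 dot per mouse with at least 5 cells, coloured by group. Cebpb in Res-MGL1hi runs from 668 to 1120 in Jak2WT and from 1287 to 1435 in mutant mice, while in Res-Txniphi the groups overlap.

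Markers of dendritic cells in the Lyve1+ sums were low. The 5 cDC1 markers, all detected, summed to 22.3 to 46.8 CPM in Jak2WT, 24.5 to 42.7 in dilation and 30.9 to 33.7 in aneurysm mice. The 5 cDC2 markers, which go with the highest Irf4, summed to 9.56 to 21.8 CPM in Jak2WT and 26.2 to 72.9 CPM in mutant mice, and their part in the Irf4 values was not tested. Of the 5 plasmacytoid dendritic cell markers, Klk1 was at 0, and the list summed to 43.1 to 114 CPM in Jak2WT, 44.2 to 59.5 in dilation and 37.2 to 47.3 in aneurysm mice, and its part in the Irf8 values was not tested. Siglech, a marker on this list, was also a top gene of the Res-Txniphi cluster among macrophages, so this sum is not specific to dendritic cells. The 12 genes of the cell dissociation response showed 0 genes called by edgeR or DESeq2, 0 at an unadjusted p under 0.05 and a median log2 fold change of 0.03, beside -0.02 over all genes, and their part in the Cebpb values was not tested. The median UMIs per Lyve1+ cell were 7673 to 9667 in Jak2WT and 10032 to 11380 in mutant mice, and the part of depth was not tested either.

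Among 45 other myeloid transcription factors, 41 were tested, 9 had an unadjusted p under 0.05, DESeq2 called 3, and edgeR called 1, beside 0.473% of all genes: Id3, an inhibitor of basic helix-loop-helix factors, rose by 1.72 ± 0.29 on the log2 scale (edgeR adjusted p = 0.0142). Their median was -0.01, beside -0.02 over all genes. Of 10 LXR targets tested, Mylip, which marks the LDL receptor for degradation, rose by 0.99 ± 0.19 (edgeR adjusted p = 0.0262), with a median of 0.24 over the list, 4 at an unadjusted p under 0.05 and 1 called by DESeq2. Of 14 MAF targets, Hmox1, the heme-degrading enzyme, rose by 0.68 ± 0.13 (edgeR adjusted p = 0.0224), with a median of 0.02, 2 at an unadjusted p under 0.05 and 1 called by DESeq2. None of 17 PU.1 targets (3 at an unadjusted p under 0.05), 8 C/EBPbeta targets (1) or 12 genes used by IRF4 or IRF8 in dendritic cells (6) was called by edgeR, and DESeq2 called 1, 0 and 0 of them. The last list had a median of -0.26, with 2 of 12 genes above 0. Of 12 genes known from GATA6-dependent macrophages, 1 passed the filter and was not called by edgeR (unadjusted p under 0.05) or DESeq2.

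Against Jak2WT, dilation was also tested alone. No member was called, where 0.0594% of 8419 genes were, with 4 members and 694 genes at an unadjusted p under 0.05 and 0 members by DESeq2. The log2 fold changes were -0.68 ± 0.23 for Irf4, -0.67 ± 0.19 for Irf8, 0.57 ± 0.19 for Cebpb and -0.32 ± 0.11 for Zeb2 (edgeR adjusted p = 0.424, 0.294, 0.423 and 0.435), and from -0.15 to 0.02 for Batf3, Spi1 and Maf. Between aneurysm and dilation, no member was called by edgeR or DESeq2 and none had an unadjusted p under 0.05, where 0.0119% of 8419 genes were called. The differences ran from -0.27 ± 0.28 (Irf4) to 0.21 ± 0.22 (Irf8). These comparisons share mice with the first and are no separate support for it.

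In the inflammatory macrophages, which came mostly from the aneurysm mice (234 and 191 cells, against 11 and 19 from dilation mice 6 and 10), the aneurysm-dilation differences of 7 members ran from -0.86 (Batf3) to 0.42 (Irf8). No gene passed edgeR's test there (0% of 8304 genes, 783 at an unadjusted p under 0.05, 25 by DESeq2), and no member had an unadjusted p under 0.05 or was called by DESeq2. Leaving out 1 of these mutant mice left 1 mouse in its severity group. The only Jak2WT mouse with at least 10 such cells also entered those fits, so their gene counts are not given. Maf was 475 and 601 CPM with dilation and 542 and 315 CPM with aneurysm, and Cebpb 1634 and 1853 CPM against 1727 and 1517 CPM. All 12 dissociation genes lay lower with aneurysm, with a median log2 fold change of -1.25, 10 of them at an unadjusted p under 0.05 and 3 called by DESeq2, and their part in the members' values was not tested. When all curated macrophages were summed, so that these cells weighed in with the resident ones, Maf fell by 0.80 on the log2 scale between dilation and aneurysm (edgeR adjusted p = 0.01), in a fit that called 9.9% of all genes (892).

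In cDC2, 5 mutant mice were compared with 4 Jak2WT mice (12 to 108 cells each, mouse 3 having only 7). No member of 7 tested was called, where 0.0452% of 4421 genes were, with 4 members and 340 genes at an unadjusted p under 0.05 and 0 members by DESeq2. No member separated the genotypes, a pattern that 2.15% of genes showed upward and 0.792% downward. The members with the largest positive differences were Irf8, Maf and Irf4. For Irf8, DESeq2 gave no adjusted p. With no filter on low counts, edgeR called Irf8 and Maf (adjusted p = 0.00409 and 0.0373), among 70 genes (0.475%).

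Irf8 in cDC2 was 12.2, 33.2, 10.6 and 10.0 CPM in Jak2WT mice 1, 2, 4 and 5, 88.5, 20.8 and 93.3 CPM in dilation mice 6, 8 and 10, and 31.9 and 113 CPM in aneurysm mice 7 and 9. Mice 7 and 8 lay within the Jak2WT range, whose highest value rests on 10 UMIs of 1 cell in mouse 2. That cell had at least 2 of the 5 cDC1 markers. In mutant mice 6, 8, 10, 7 and 9, cells with at least 2 of these markers held 10, 2, 8, 4 and 9 Irf8 UMIs. No cell was left out for cDC1 markers, and their part in the values was not tested. The log2 fold change was 1.94 ± 0.63 (edgeR adjusted p = 0.407), and the exact two-sided permutation test gave an unadjusted p of 0.0397. Of the Jak2WT mice, 1 had 10 Irf8 UMIs and the others 2 or 3, so that the gene passed the filter through the mutant mice and these values support no difference.

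These counts sat in few cells. Of 369 Irf8 UMIs in 396 cDC2 cells, 196 (53.1%) lay in 6 cells that had at least 3 of the 5 plasmacytoid dendritic cell markers Siglech, Klk1, Cox6a2, Ccr9 and Ly6d, and that held 7 to 60 Irf8 UMIs each and 2 Irf4 UMIs in all. Plasmacytoid dendritic cells, the main makers of type I interferon, are known for high IRF8. All 6 cells came from mutant mice, 2 from mouse 6, 1 from mouse 10 and 3 from mouse 9, which are the 3 mice with the highest Irf8. Without these 6 cells, Irf8 in cDC2 was 18.2, 20.8 and 22.8 CPM with dilation and 31.9 and 40.4 CPM with aneurysm, and the gene no longer passed the filter for the genotype test. The 5 cDC1 markers in cDC2 summed to 40.2 to 79.8 CPM in Jak2WT, 59.1 to 95.9 in dilation and 67.7 to 95.2 in aneurysm mice. The 3 monocyte markers summed to 8.12 to 114, 3.19 to 177 and 129 to 204 CPM, the 5 markers of mature dendritic cells to 31.9 to 80.3, 25.6 to 102 and 191 to 438 CPM, the 5 cavity-type markers to 13.3 to 70.3, 25.6 to 449 and 16.0 to 32.5 CPM, and the 5 plasmacytoid markers to 3.32 to 80.3, 6.39 to 541 and 18.7 to 177 CPM. All markers of these lists were detected, and their part in the members' values in cDC2 was not tested.

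Irf4, the cDC2 factor, was 52.8, 86.4, 69.1 and 53.5 CPM in the Jak2WT mice, 175, 67.1 and 139 CPM with dilation and 115 and 76.7 CPM with aneurysm. Mice 6, 7 and 10 lay above the Jak2WT mice and mice 8 and 9 within their range. The log2 fold change was 0.73 ± 0.32 (edgeR adjusted p = 0.613), and without the 6 cells it was 0.76 (edgeR adjusted p = 0.627). Each Jak2WT value rests on 13 to 26 UMIs.

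Maf was 60.9, 36.6, 112 and 43.5 CPM in the Jak2WT mice and 88.5, 262, 109, 79.8 and 111 CPM in mutant mice 6, 8, 10, 7 and 9, with mouse 8 far above the others (log2 fold change 1.05 ± 0.39, edgeR adjusted p = 0.506). Of 9 MAF targets tested in cDC2, all had positive log2 fold changes, with a median of 1.28 beside -0.01 over all genes, 6 at an unadjusted p under 0.05, and 1 was called: Pf4, a chemokine of platelets and resident macrophages (2.57 ± 0.22, edgeR adjusted p = 0.000108). Apoe, an LXR target, was the other gene called (1.46 ± 0.22, edgeR adjusted p = 0.0253), while 3 of the 7 LXR targets tested had positive log2 fold changes and their median was -0.08. The 7 naming markers of macrophages, all detected in cDC2, summed to 864 to 1928 CPM in Jak2WT, 2291 to 4999 in dilation and 2474 to 3227 in aneurysm mice, against at least 17199.6 CPM in the Lyve1+ macrophages. C1qa, C1qb and C1qc stand on both this marker list and the MAF target list, so the lists are not separate observations. The part of macrophage markers in the values of Maf, the MAF targets, Pf4 and Apoe was not tested.

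Cebpb (0.42 ± 0.24), Spi1 (0.17 ± 0.16), Zeb2 (-0.08 ± 0.13) and Batf3 (-0.53 ± 0.23) gave edgeR adjusted p of 0.718, 0.842, 0.926 and 0.613. Batf3 ranged from 117 to 277 CPM in Jak2WT mice and from 84.3 to 157 CPM in mutant mice. Of the other lists, none of 37 myeloid transcription factors, 14 PU.1 targets, 8 C/EBPbeta targets and 13 IRF4 or IRF8 genes was called by edgeR (6, 1, 2 and 3 at an unadjusted p under 0.05, and 1, 0, 1 and 0 by DESeq2). Of the 12 dissociation genes 0 were called by edgeR, 4 had an unadjusted p under 0.05 and 3 were called by DESeq2, with a median of -0.25, and their part was not tested. Between aneurysm and dilation no member was called in cDC2 by edgeR or DESeq2, where 0.173% of 5193 genes were, and none had an unadjusted p under 0.05. The differences ran from -0.66 ± 0.39 (Maf) to 0.29 ± 0.20 (Spi1).

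**Figure D4:**
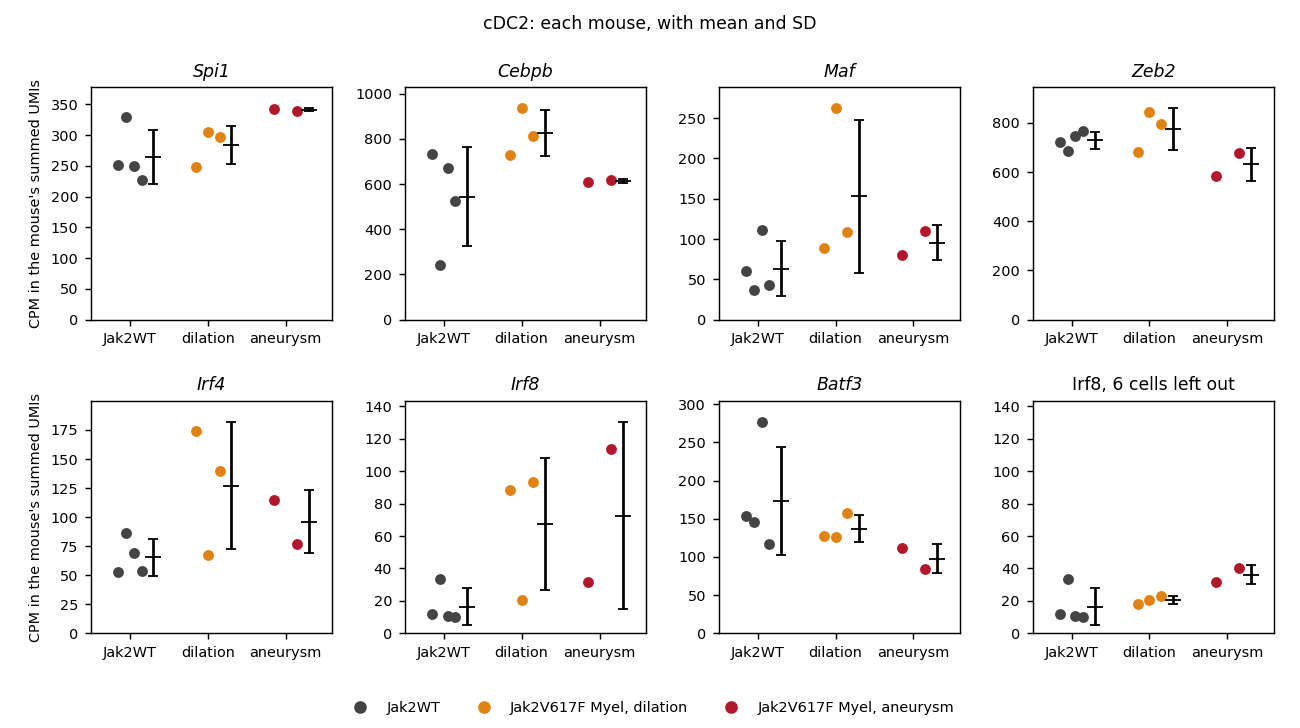
CPM of 7 members in the cDC2 of each mouse (dots), by group, with the mean and SD (bar), and Irf8 again without the 6 cells that carried plasmacytoid markers. With these cells left out, Irf8 drops from at most 113 to at most 40.4 CPM.

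The fold changes of Irf8 and Irf4 were opposite in sign in Lyve1+ macrophages and cDC2, and the difference itself was tested in 1 model over both, with mouse as a block (4 Jak2WT and 5 mutant mice). The genotype effect in cDC2 exceeded that in Lyve1+ macrophages by 2.50 ± 0.60 on the log2 scale for Irf8 and by 1.47 ± 0.32 for Irf4, with edgeR adjusted p of 0.218 and 0.117. No member was called, where 0.0251% of 7977 genes were (Pf4 and Apoe), with 4 members and 558 genes at an unadjusted p under 0.05, and DESeq2 called both Irf8 and Irf4 (adjusted p = 0.0358 and 0.0462), where it called 0.226% of genes. Without the 6 cells, the difference was 1.32 for Irf8 and 1.499 for Irf4 (edgeR adjusted p = 0.511 and 0.106). DESeq2 then no longer called Irf8 (adjusted p = 0.664), while Irf4 passed (adjusted p = 0.0479) among 15 genes called of 7950. Without aneurysm mouse 7, which held none of these cells, Irf8 passed in edgeR with the 6 cells included, at 2.86 (edgeR adjusted p = 0.0453), where 0.0513% of genes did. With no filter on low counts, edgeR called Irf8, Irf4 and Maf (adjusted p = 4.055e-09, 0.00175 and 0.028), where 0.604% of genes were called. The calls without mouse 7 and with no filter were not repeated without the 6 cells. For Irf8, the Jak2WT cDC2 side of this difference rests on the same 3, 10, 2 and 3 UMIs in mice 1, 2, 4 and 5 as above. None of the Irf8 calls given here therefore supports a difference.

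**Figure D5:**
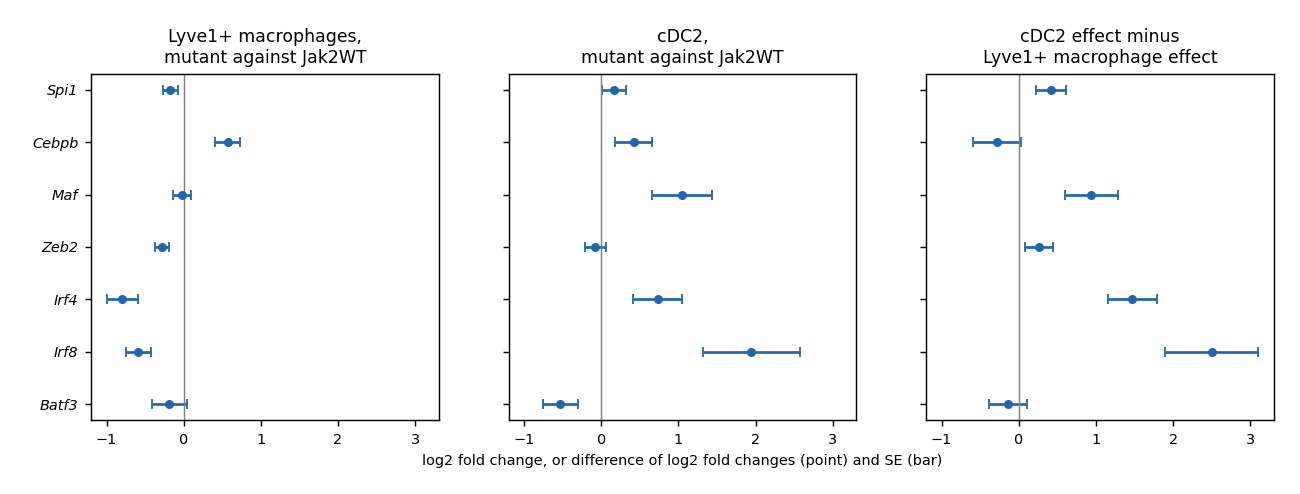
Log2 fold changes of 7 members, mutant against Jak2WT, in Lyve1+ macrophages and cDC2, and the difference between these, as points with their standard error. Irf4 and Irf8 lie below 0 in Lyve1+ macrophages and above 0 in cDC2, and no point passed the adjusted threshold in edgeR.

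Neutrophils, cDC1 and cavity-type cells did not have 2 mice per genotype with at least 10 cells. At 5 cells per mouse, 3 Jak2WT and 3 mutant mice could be compared in neutrophils, where 3 members passed the filter and none was called by edgeR or DESeq2 (0% of 807 genes, 151 at an unadjusted p under 0.05, 26 by DESeq2). Zeb2 differed by 0.81 ± 0.57, Spi1 by -0.57 ± 0.38 and Cebpb by -0.13 ± 0.37. In cavity-type cells, 2 Jak2WT and 2 dilation mice gave log2 fold changes from -0.12 to 0.22 for 7 of 8 members tested and 1.01 ± 0.87 for Irf4, none called by edgeR or DESeq2 where 0.0293% of 6816 genes were, and Gata6 differed by -0.12 ± 0.38. The second Jak2WT mouse there had 5 cells and 104 CPM of Gata6. Without aneurysm mouse 7, edgeR called 14 genes in neutrophils and 0 members. In cDC1, 1 Jak2WT mouse remained, with Irf8 at 976 CPM between the 791 and 1044 CPM of the mutant mice. Across these comparisons p-values measure the spread between mice of 1 run, in which hashtags separate mice but sort, capture and sequencing were shared.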

How the data were processed

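The deposited files held UMI counts of genes, surface antibodies and hashtags per barcode, made by the authors with Cell Ranger on mm10. The submitters' processing notes also name Seurat 3.0.0. No other column of values was left unused (0 columns). Hashtags were assigned again with HTODemux (positive quantile 0.99), which removes barcodes with several hashtags; doublets within 1 mouse were not called. Cells with over 10% mitochondrial UMIs were removed. Clusters were built in Seurat 5.3.0 (R 4.3.3) from 2000 variable genes without the 9 members, 20 principal components and resolutions of 0.3 for all cells and 0.8 for macrophages. They were named from marker lists. Macrophage clusters poor in RNA, whose median depth was below 1 part in 3 of that of macrophages, were set aside (388 cells).

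UMIs were summed per mouse and class with at least 10 cells, or 5 cells within subsets, neutrophils and cavity-type cells. The mouse was the replicate. Tests used edgeR 4.0.16 (quasi-likelihood, TMM scaling, Benjamini-Hochberg adjustment over all genes passing the filter, threshold 0.05), with DESeq2 1.42.0 as an alternative, and were tested on simulated data. Single values used two-sided exact permutation tests on log2(CPM + 1), with a pseudocount of 1 CPM. Shares of cells were thinned to 2000 UMIs. Intervals are at 95% and zero-count limits use 3 counts, and both cover counting error only. Genes named were the 9 members, the called genes of lists, and the 3 genes of at least 20 CPM most correlated with each member. Genes and lists were chosen with earlier results of these data known. Other alternatives changed the scaling, filters, cell minimum, clustering, hashtag caller and classes summed, and left out each mouse in turn. Fitting within the Lyve1+ subsets, leaving out cells with plasmacytoid markers and splitting the Res-MGL1hi class were chosen after seeing the data.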

Additional observations from a re-analysis of the deposited data

Results flagged for a closer look

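Of 29 groups tested for a value far from the rest, 2 held one, and chance alone flags about 1 in 20. In the Lyve1+ macrophages, mutant mouse 6 had 29.8 CPM of Irf4, while the other 4 mutant mice had 16.4 to 17.8 CPM. In cDC2, mutant mouse 8 had 262 CPM of Maf, while the other 4 mutant mice had 79.8 to 111 CPM.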

How the results depend on the processing

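Of 839 pairs of a member's log2 fold change and an alternative, 804 kept their direction, 35 reversed and 27 came to pass a threshold. These 27 mix adjusted p-values with unadjusted ones from the exact permutation test, which were held to the same cut-off. The unadjusted ones were for Spi1, Cebpb, Irf4, Irf8 and Zeb2 in Lyve1+ macrophages and for Irf8 in cDC2. The cause was not tested for any of these pairs. In Lyve1+ macrophages, mutant against Jak2WT, edgeR called 36 genes and 0 members. DESeq2 called 90 genes and 1 member, edgeR with no filter on low counts 292 and 3, edgeR without IEG+ cells 165 and 1, and edgeR over all curated macrophages 0 genes. Within Res-MGL1hi 17 genes and 1 member were called, within Res-Txniphi 0 genes and within IEG+ 1 gene, with fewer cells. Maf, at -0.02, became 0.014 with no filter, 0.0087 with 10 principal components, 0.090 within Res-MGL1hi, 0.023 within Res-Txniphi, 0.028 within IEG+ and 0.0017 as the difference of mean log2(CPM + 1).

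For dilation against Jak2WT, 5 genes became 17 by DESeq2, 160 (2 members) with no filter, 1 with 10 principal components, 32 (1 member, Cebpb) without IEG+, 2 over all curated macrophages, 0 within Res-Txniphi and 2 within IEG+. The genes tested under these alternatives are not counted here, so the members called have no share over all genes beside them. Maf became -0.0078 with low-RNA clusters kept and -0.041 within Res-Txniphi, and Spi1 0.017 within Res-MGL1hi. For aneurysm against dilation, 1 gene became 40 with no filter, 2 with low-RNA clusters kept, 892 (1 member, Maf) over all curated macrophages and 3 within Res-MGL1hi. Over all curated macrophages Spi1 became 0.25 and Zeb2 -0.031, within Res-Txniphi Maf became 0.14 and Cebpb -0.30, and within IEG+ Spi1 became 0.051 and Maf 0.049.

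In cDC2, mutant against Jak2WT, 2 genes became 22 by DESeq2, 70 (2 members) with no filter, and 1 each at a minimum of 5 cells, at a minimum of 20 cells and at a limit of 5% mitochondrial UMIs. Zeb2 became 0.018 with no filter and 0.034 at the 5% limit. With 10 principal components the dendritic cells shared a cluster of 414 cells named cDC1, so no cDC2 comparison could be run there. Irf4 was then highest in that cluster. At a macrophage resolution of 1.2, Zeb2 was highest in Res-Txniphi in place of monocytes. The class with the highest level stayed the same for the other members. For aneurysm against dilation in cDC2, 9 genes became 163 with no filter and 22 at a minimum of 20 cells. In neutrophils 0 genes became 26 by DESeq2 and 52 with no filter. In cavity-type cells 2 genes became 1 by DESeq2, 10 with no filter and 0 with 10 principal components. In inflammatory macrophages 0 genes became 25 by DESeq2, 183 with no filter and 2 with 10 principal components. For the difference between cDC2 and Lyve1+ macrophages, 2 genes became 18 (2 members) by DESeq2, 102 (3 members) with no filter, 15 (1 member, Irf4) by DESeq2 without the cells of plasmacytoid markers and 1 at the 5% limit, and Cebpb became 0.44 at a minimum of 20 cells.

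Leaving out 1 mouse at a time gave 8 (without Jak2WT mouse 1) to 60 (without Jak2WT mouse 5) genes and 0 to 1 member in Lyve1+ macrophages, with 19, 22, 14 and 16 genes without mice 3, 10, 7 and 9. Maf ran from -0.10 to 0.046 and Batf3 from -0.32 to 0.021. For dilation it gave 1 to 14 genes (1 without any of mice 1, 3, 6, 7, 8 and 9, 2 without mouse 10, 11 without mouse 4, 14 without mouse 5), Maf from -0.065 to 0.11 and Batf3 from -0.32 to 0.061. For aneurysm against dilation it gave 0 (without mouse 10) to 1 gene. Without mouse 7 or 9, only 1 aneurysm mouse remained there and in cDC2, so no count is given for these fits. The log2 fold changes ran from -0.20 to 0.032 for Maf, -0.081 to 0.12 for Cebpb, -0.021 to 0.42 for Irf8 and -0.21 to 0.087 for Batf3. In cDC2 the genotype test gave 1 (without mouse 1, 2 or 6) to 7 genes (without mouse 5). For aneurysm against dilation there it gave up to 15 (without mouse 1 or 5), with 14 without mouse 6. Neutrophils gave 0 to 14 genes and inflammatory macrophages 0 to 137. The difference between classes gave 1 (without mouse 1, 2 or 9) to 12 genes (without mouse 5), with 7 without mouse 8 and 4 without mouse 7, 0 to 1 member, Cebpb from -0.66 to 0.018 and Batf3 from -0.25 to 0.0010.

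No paired analysis was possible because each mouse belongs to 1 group, so that the groups share no replicate number; the comparison of cDC2 with Lyve1+ macrophages, which the same mice gave, had mouse as a block. At these depths Nr1h3 and Gata6 did not pass the filter on low counts in Lyve1+ macrophages and were not tested there.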
